A study of Mus musculus with 2 samples.

Results

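Airway ciliated cells were described in single-cell RNA sequencing of dissociated lungs, taken from BALB/c mice, all of them female. They were the cells that the authors' table names "Cilliated", 83 of 18397 cells in all. The mice were put on either diet at an age of 4 weeks, kept on it for 16 weeks and analysed at 20 weeks. In the control diet (CD), fat supplied 13%, protein 27% and carbohydrate 60% of the energy, and in the high-fat diet (HFD) they supplied 60%, 20% and 20%, with lard as the fat of both diets. All mice were otherwise untreated as far as the labels say, and each diet was represented by 1 library of perfused lung, with the number of mice in it not given. The CD library contributed 31 of its 8793 cells and the HFD library 52 of its 9604. With 1 library per diet no test was run. Intervals of shares and single medians are 95% intervals over the cells counted, and those of ratios and differences of medians combine the outer bounds of both and are therefore wider than 95% intervals. None includes the differences between animals or preparations.

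Ciliated cells line the conducting airways together with secretory cells and carry bundles of motile cilia that move mucus and trapped particles out of the lung. Each motile cilium is built around an axoneme of microtubules, on which dynein arms generate the beat, radial spokes and a central pair regulate it, and intraflagellar transport moves the building blocks. Foxj1 is the transcription factor that switches on the motile cilium programme. AT1 and AT2 cells, to which ciliated cells were compared, belong to the alveolus instead. AT1 cells form most of its gas exchange surface, and AT2 cells make surfactant.

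Foxj1 and 22 other genes of the cilia lists were among the genes by which the cells of these lungs were separated. The authors had marked 1000 of 19278 genes as highly variable over both libraries together (5.19%) and had built the map and the clusters from them. The flag has no direction between diets and was used to define the clusters, so it describes the basis of the annotation and is no independent support of it. Foxj1 (ENSMUSG00000034227, GRCm38 chr11:116330704-116335399, minus strand, a protein-coding gene) carried the flag. Its level per cell was not analysed here, so that the name of the cells rests on the authors' annotation. Of 119 genes of 10 cilia lists found in the gene table, 23 carried the flag (19.3%).

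By role, of 11 regulators of multiciliated cells, 3 were flagged, namely Foxj1, Ccno, a cyclin required for the mass production of centrioles, and Plk4, a kinase of centriole duplication. In the outer dynein arm 1 of 11 was flagged (Dnah5, a heavy chain), and in the inner dynein arm 2 of 10 were flagged (the heavy chains Dnah6 and Dnah12). Radial spokes and the central pair contributed 2 of 12, which were Rsph1 of the spoke head and Hydin of the central pair. Of 12 axonemal inner proteins and tektins, only Mns1 was flagged. None was flagged among 10 dynein assembly factors, 5 genes of the nexin link and ruler, 14 intraflagellar transport genes and 6 tubulins. The tubulin Tubb4b is marked as a cell cycle gene in the table, and since such genes were left out of the choice of variable genes it could not be flagged. The 7 lists of axoneme parts, dynein assembly and transport thus held 6 flagged genes of 74 (8.11%), near the 5.19% of all genes. At that share a list of 5 to 14 genes would hold fewer than 1 on average, so the lists without a flagged gene are not set apart by their counts.

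Of 28 general markers of ciliated cells, 14 were flagged. They were the cilium-linked Ccdc153, Tmem212, Fam183b, 1110017D15Rik, Ccdc113, Meig1 and Riiad1, the dynein light chain Dynlrb2, the basal body protein Cfap126, the lipid-binding Sec14l3, the tubulin-binding Tppp3, the cytochrome P450 Cyp2s1, the adenylate kinase Ak7 and Sntn of the ciliary tip. Markers of other epithelial cells were flagged as well, with 5 of 6 AT1 genes and 6 of 6 AT2 genes. Of 7 club cell genes, 5 carried the flag, including Scgb1a1 (chr19:9083636-9087958), which encodes the main secretory protein of club cells, and Scgb3a2, Cyp2f2, Cbr2 and Aldh1a1. The goblet cell list had 2 of 7 (Scgb3a1 and Bpifa1), the neuroendocrine list 1 of 4 (Calca) and the basal cell list 0 of 3. None of the 17 cell-type names in the table is that of a club, goblet, basal or neuroendocrine cell. Whether the ciliated cluster contained such cells was not tested.

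**Figure D1:**
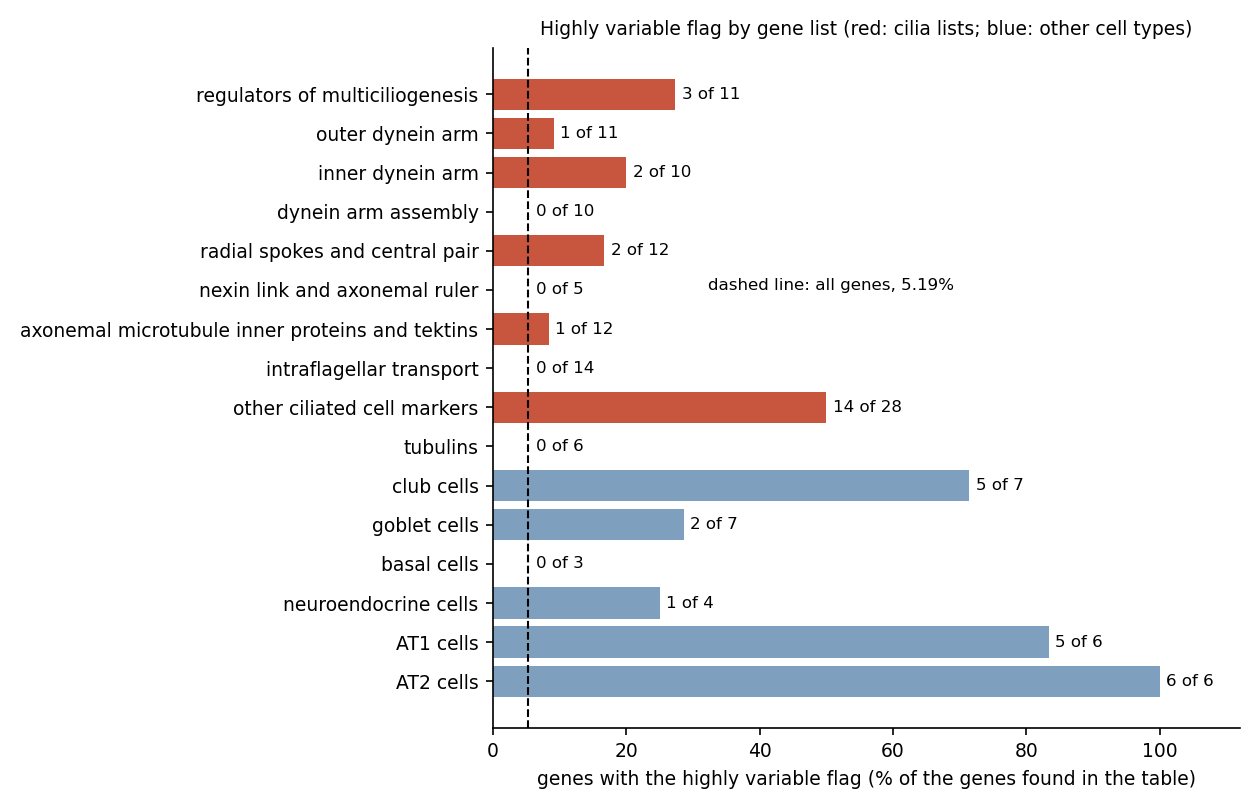
Share of the genes of each list that carried the authors' highly variable flag, in percent of the list's genes found in the gene table, with the counts beside the bars and all genes (5.19%) as the dashed line. Markers of ciliated cells (14 of 28) and regulators (3 of 11) lay above the line. Lists of other cell types did so too, namely AT2 (6 of 6), AT1 (5 of 6), club (5 of 7), goblet (2 of 7) and neuroendocrine cells (1 of 4). The dynein arm, spoke and inner protein lists passed the line with only 1 or 2 flagged genes each. Lists as short as those without a flagged gene are not set apart from the line by their counts, and in the tubulin list (0 of 6) Tubb4b could not be flagged.

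Ciliated cells were a rare type. They made up 0.353% of CD cells (exact interval 0.240 to 0.500) and 0.541% of HFD cells (0.405 to 0.709), and they ranked 15th in number among the 17 types. The HFD to CD ratio of these shares, 1.54 (0.966 to 2.48), was the second highest of the 17 after that of AT1 cells. The separate intervals overlapped in ciliated cells, whereas they did not overlap in 29.4% of the cell types. An interval of the ratio that excluded 1 was found for 35.3% of the types and not for ciliated cells. With cells of at most 10% mitochondrial UMIs (unique molecular identifiers, the count of captured transcripts), the ratio was 1.78 (1.05 to 3.09). That limit left 23 CD and 44 HFD ciliated cells. It removed 8 of 31 in CD and 8 of 52 in HFD, an unequal loss that itself raises the ratio. Under every other alternative the interval included 1, with ratios from 1.42 (0.894 to 2.29) to 1.58 (0.977 to 2.60).

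Relative to the annotated epithelial cells, which here means ciliated, AT1 and AT2 cells only, the ciliated fractions of both libraries were close. The shares of AT1 and AT2 cells among all cells were themselves higher in HFD. Their HFD to CD ratios were 1.65 (1.38 to 1.99) and 1.45 (1.28 to 1.65). Ciliated cells were 5.03% of the cells of these 3 types in CD (3.44 to 7.07, 31 of 616) and 5.10% in HFD (3.83 to 6.63, 52 of 1020). For every 100 AT1 cells there were 16.8 ciliated cells in CD and 15.6 in HFD, with an HFD to CD ratio of 0.929 (0.562 to 1.56). For every 100 AT2 cells there were 7.75 in CD and 8.20 in HFD, and here the ratio was 1.06 (0.653 to 1.74). At these cell numbers the intervals still include changes of over 1.5 times in either direction.

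Ciliated cells were among the types with the most UMIs per cell. In CD they ranged from 2087 to 33290 UMIs, with quartiles at 5470 and 13666 and a median of 9891 (6315 to 12365). In HFD they ranged from 2199 to 37017 UMIs, with quartiles at 8847 and 18434 and a median of 12303 (9916 to 14143). The ranges of both libraries overlapped almost entirely, and the HFD to CD ratio of the medians was 1.24 (0.802 to 2.24), rank 4 of the 17 types. The median was higher in HFD in 14 of the 17 types for UMIs, in 14 for detected genes and in 13 for mitochondrial percent. In each library the ciliated median was the third highest of the 17 types, behind alveolar macrophages and AT2 cells. Intervals of median UMIs failed to overlap between diets in 41.2% of the types, and ciliated cells were not among them.

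At the ends of the distribution, cells under 5000 UMIs were 8 of 31 in CD (25.8%, 11.9 to 44.6) and 3 of 52 in HFD (5.77%, 1.21 to 15.9). Cells of at least 20000 UMIs were 1 of 31 in CD (3.23%, 0.0816 to 16.7) and 10 of 52 in HFD (19.2%, 9.63 to 32.5). Both pairs of intervals overlapped, and these limits were chosen after the values had been seen. The CD cell of 33290 UMIs was well apart from the next, which had 18785. In sum the ciliated cells held 322924 UMIs in CD (Poisson interval 321811 to 324040) and 702281 in HFD (700639 to 703925). These narrow intervals cover the counting of UMIs only and leave out the spread between cells, and the single deepest cell held 10.3% of the CD sum and 5.27% of the HFD sum. The sums were 0.760% of the UMIs of all CD cells kept by the authors and 1.39% of those of all HFD cells kept. These were 2.16 and 2.56 times the share of ciliated cells among cells.

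The median depth of AT2 cells was close to that of ciliated cells, and that of AT1 cells was lower. The ciliated median was 0.904 times that of AT2 cells in CD (0.558 to 1.20) and 0.985 times in HFD (0.760 to 1.18). Against AT1 cells it was 2.56 times as high in CD (1.34 to 3.75) and 4.22 times as high in HFD (2.63 to 5.85). Under a minimum of 3000 UMIs the CD value was 1.61 (0.988 to 2.34) and the HFD value 1.68 (1.22 to 2.18). That minimum removed 37.3% of CD and 50.9% of HFD AT1 cells, but 3 of 31 and 1 of 52 ciliated cells. Relative to the median, the spread of depth was smaller in ciliated than in AT1 cells. The distance between the quartiles was 0.829 times the median in CD and 0.779 times in HFD, compared to 1.41 and 1.98 in AT1 cells and 0.475 and 0.545 in AT2 cells.

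**Figure D2:**
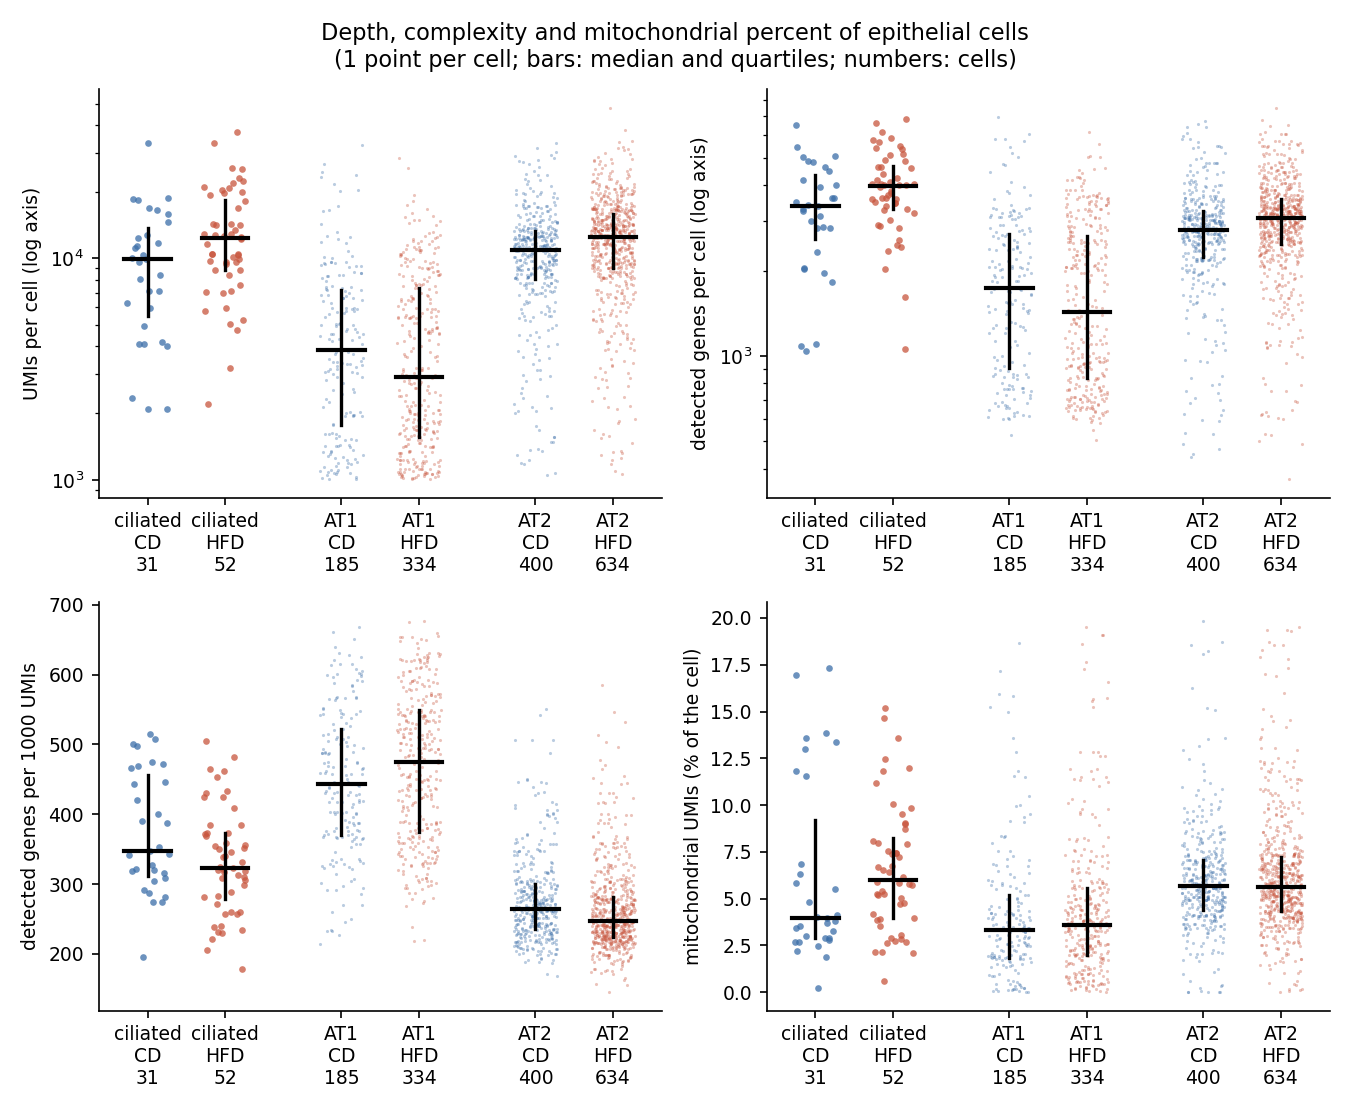
UMIs, detected genes, detected genes per 1000 UMIs and mitochondrial percent of every ciliated, AT1 and AT2 cell (1 point each, both upper axes logarithmic), with the median and quartiles as black bars and the number of cells under each group. Ciliated cells reached the depth of AT2 cells but had higher medians of detected genes, 3388 in CD and 3975.5 in HFD.

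Ciliated cells had the highest median of detected genes of all 17 types in both libraries. The CD cells ranged from 1045 to 6527 genes, with quartiles at 2574 and 4338 and a median of 3388 (2834 to 3999). The HFD cells ranged from 1061 to 6831 genes, with quartiles at 3297 and 4691 and a median of 3975.5 (3574 to 4178). Alveolar macrophages came next, with medians of 3262 in CD and 3712.5 in HFD, which lie inside the ciliated intervals. The HFD to CD ratio of the ciliated medians was 1.17 (0.894 to 1.47), the highest point value of the 17 types, but the cells of both libraries overlapped over nearly the whole range. Intervals of median genes failed to overlap between diets in 41.2% of the types, again without ciliated cells. Compared to AT2 cells, the ciliated median was 1.21 times as high in CD (0.987 to 1.47) and 1.30 times as high in HFD (1.14 to 1.40). Compared to AT1 cells it was 1.95 times (1.40 to 2.63) and 2.78 times as high (2.02 to 3.43). Under minimums of 2000 and 3000 UMIs the HFD ratio to AT1 cells was 1.61 and 1.47.

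**Figure D3:**
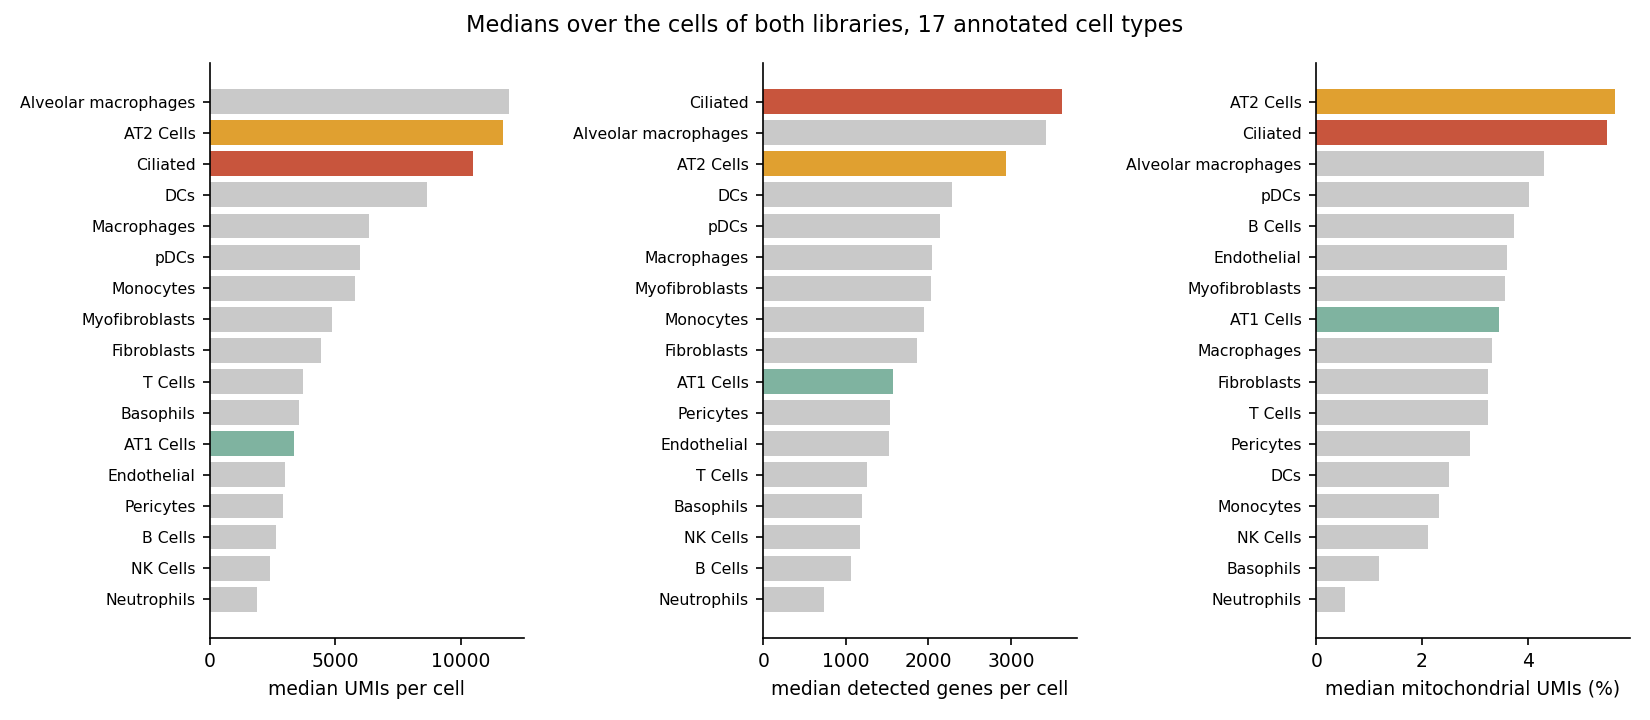
Median UMIs, detected genes and mitochondrial percent per cell over both libraries for the 17 annotated cell types, with ciliated (red), AT2 (yellow) and AT1 cells (green) marked. Ciliated cells had the highest median of detected genes (3616), the third highest of UMIs (10508) and the second highest of mitochondrial percent (5.49%).

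Detected genes rise with depth, so complexity was also expressed per UMI. In CD, ciliated cells ranged from 196 to 515 genes per 1000 UMIs, with a median of 348 (318 to 443). In HFD they ranged from 179 to 505, with a median of 324 (308 to 354). These values lay between those of AT2 cells, with 264 in CD and 247 in HFD, and AT1 cells, with 444 in CD and 475 in HFD. In CD the ciliated median was 1.32 times that of AT2 cells (1.18 to 1.70), and the HFD value was 1.31 (1.22 to 1.46). Relative to AT1 cells, CD gave 0.784 (0.685 to 1.05) and HFD 0.681 (0.625 to 0.785). Between diets the ciliated ratio was 0.930 (0.695 to 1.11). Since genes per UMI falls with depth in each type, this measure ranks the shallow AT1 cells above the deep ciliated cells.

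Among cells of similar depth, ciliated cells had slightly more genes than AT1 cells, the reverse of the order per UMI. Each ciliated cell was compared with the AT1 or AT2 cells of its own library that had UMIs within 10% of its own. Against AT2 cells, ciliated cells had 1.31 times the genes in CD (1.27 to 1.34) and 1.30 times in HFD (1.25 to 1.33), with more genes in 30 of 31 and 52 of 52 cells. Against AT1 cells they had 1.06 times the genes in CD (1.03 to 1.10) and 1.06 times in HFD (1.04 to 1.08), with more genes in 25 of 31 CD cells and in 37 of the 47 HFD cells that had a partner. Across the 16 other types the median ratio at equal depth was above 1 in both libraries for 15, and the highest was 1.38 against dendritic cells in HFD. The exception was pericytes, with 0.996 in CD and 1.00 in HFD. Between diets, a wider window of 25% was used, where HFD ciliated cells had 1.04 times the genes (1.01 to 1.07) of CD ciliated cells. The ratio per UMI of 0.930 thus lay on the other side of 1. Against AT1 cells the wider window gave 1.10 in both libraries, compared to 1.06 within 10%. Lines fitted to the ciliated cells of each library, given next, were nearly level at 10000 UMIs (3453 genes in CD, 3440 in HFD). The AT1 lines gave 3323 genes in CD and 3406 in HFD there, so in HFD both types were nearly level. Intervals at equal depth are those of medians over ciliated cells and leave out the spread of the cells matched to them. Whether the partners inside a window had the same depth on average was not checked.

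The relation of genes to UMIs was tight among ciliated cells. On log10 scales Pearson's r across cells was 0.987 in CD (31 cells) and 0.979 in HFD (52 cells), which describes cells that share a library and is no result about the diets. The least-squares line gave 3453 genes at 10000 UMIs in CD and 3440 in HFD. Lines for the alveolar cells gave 3323 and 3406 genes in AT1 cells and 2677 and 2646 in AT2 cells. At 3000 UMIs the lines gave 1532 genes in CD and 1660 in HFD ciliated cells. The values there were 1392 and 1404 in AT1 cells and 1123 and 1138 in AT2 cells. The ciliated lines of both diets thus lay closer at 10000 than at 3000 UMIs. Only 3 of 52 HFD and 8 of 31 CD ciliated cells had under 5000 UMIs. The lines at 3000 UMIs, above all that of HFD, therefore rest mostly on deeper cells. The slope was 0.675 in CD and 0.605 in HFD ciliated cells, compared to values from 0.701 to 0.736 in AT1 and AT2 cells of either library.

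**Figure D4:**
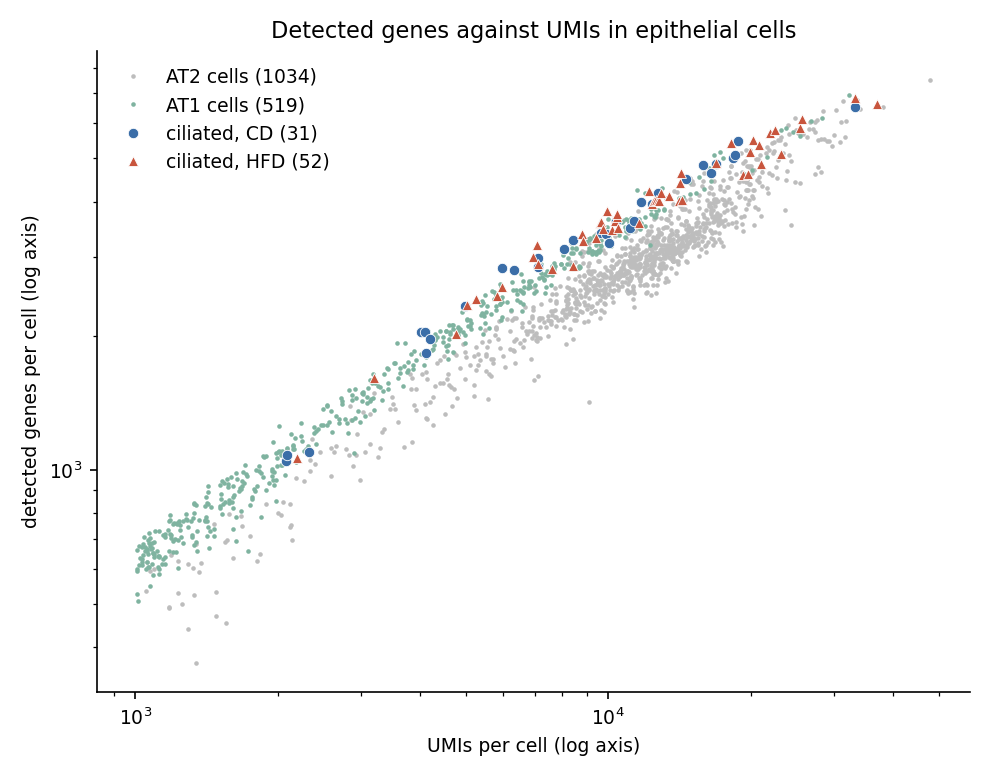
Detected genes against UMIs per cell (both axes logarithmic) for 31 CD and 52 HFD ciliated cells over 519 AT1 and 1034 AT2 cells of both libraries. Ciliated cells of both diets lay along the upper edge, together with the deeper AT1 cells and above AT2 cells of the same depth, where the matched ratio was 1.31 in CD and 1.30 in HFD.

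The mitochondrial percent is the share of the UMIs of a cell that came from mitochondrial genes. The authors removed cells above an upper limit, and the highest value of any remaining cell was 19.9%, so the distributions are cut off there. In CD ciliated cells it ranged from 0.215% to 17.3%, with quartiles at 2.87% and 9.21% and a median of 3.94% (3.01 to 6.29). In HFD it ranged from 0.591% to 15.2%, with quartiles at 3.94% and 8.24% and a median of 6.02% (5.17 to 7.41). The HFD median was 2.08 percentage points higher (interval -1.12 to 4.40). Within the lower part of the ciliated cluster on the UMAP, described further on, the difference was 1.10 points (-6.55 to 3.84). The ratio of the medians, 1.53, was the highest point value of the 17 types. Intervals of the median failed to overlap between diets in 29.4% of the types, and those of ciliated cells overlapped. Pooled over cells, mitochondrial UMIs were 16994 of the UMIs of CD ciliated cells (5.26%) and 45378 of those of HFD ciliated cells (6.46%), a smaller gap than that of the medians.

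The values were spread differently in the libraries. In CD 19 of 31 cells lay under 5% (61.3%, 42.2 to 78.1), 4 lay from 5% to under 10% (12.9%, 3.63 to 29.8) and 8 at 10% or above (25.8%, 11.9 to 44.6). In HFD the same ranges held 17 of 52 cells (32.7%, 20.3 to 47.1), 27 cells (51.9%, 37.6 to 66.0) and 8 cells (15.4%, 6.88 to 28.1). The intervals of the middle range did not overlap, and those of the other ranges did. The ranges were chosen after the values had been seen, and the separation depended on the limits. From 4% to under 8% there were 7 CD cells (22.6%, 9.59 to 41.1) and 24 HFD cells (46.2%, 32.2 to 60.5), with overlapping intervals. In AT1 cells the range from 5% to under 10% held 19.5% of CD cells and 20.7% of HFD cells, and in AT2 cells 57.2% and 52.5%, with overlapping intervals between diets in both.

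The intervals of the difference in mitochondrial percent between ciliated and AT2 cells included 0 in both libraries, but not in CD with cells of at most 10% mitochondrial UMIs (-2.14, -2.88 to -1.27). That limit cuts the compared measure itself and removed 8 of 31 ciliated but 25 of 400 AT2 cells, so it narrows and lowers the ciliated values by construction. Over all cells, the ciliated median was 1.71 points below that of AT2 cells in CD (interval of the difference -2.89 to 0.894) and 0.382 points above it in HFD (-0.671 to 2.04). Against AT1 cells it was 0.618 points higher in CD (-0.600 to 3.47) and 2.42 points higher in HFD (1.34 to 4.12). With at most 10% mitochondrial UMIs, the HFD difference to AT2 cells was 0.211 points (-0.818 to 1.36). Under the same limit, the CD difference to AT1 cells was 0.377 points (-0.631 to 1.43). Without the 1% of deepest cells, the HFD difference to AT2 cells was 0.750 points (-0.895 to 2.10). Among the 17 types ciliated cells held rank 4 in CD and rank 1 in HFD. Cells at 10% or above were more frequent among CD ciliated cells (8 of 31) than among CD AT1 cells (13 of 185, 7.03%, 3.79 to 11.7) or CD AT2 cells (25 of 400, 6.25%, 4.09 to 9.09), where the intervals did not overlap that of ciliated cells. In HFD the intervals of ciliated (6.88 to 28.1), AT1 (5.89 to 12.2) and AT2 cells (7.86 to 12.7) overlapped. The CD ciliated cell of highest percent, 17.3%, had 4095 UMIs, whereas that of HFD, with 15.2%, had 19724 UMIs. Across cells, Spearman's rho of mitochondrial percent with UMIs was -0.359 in CD and -0.0757 in HFD.

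All ciliated cells belonged to 1 fine cluster, number 37, which held no other cell. The authors called clusters in the plane of the UMAP, a map of all cells in 2 dimensions computed from the highly variable genes. Position therefore defined the cells and is given as a description, and distances on such a map have no unit and do not scale with differences in expression. The ciliated centre lay at 0.844 and 1.81, on axes that reached 2.04 and 2.05 over all cells. The AT2 centre lay 0.541 away and the AT1 centre 0.879 away, the third and eighth nearest of the 16 other types. NK cells were the nearest type at 0.287, followed by fibroblasts at 0.453. The closest AT2 cell was 0.441 from any ciliated cell and the closest AT1 cell 0.834, so ciliated cells formed an island apart from the alveolar epithelium. The island was compact, with a median distance of 0.00405 from its centre, compared to 0.0492 in AT2 and 0.0317 in AT1 cells. Basophils (0.000351) and plasmacytoid dendritic cells (0.00388), both fewer in number than ciliated cells, were more compact still.

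Within the island the cells followed a narrow diagonal, with a dense lower part and a thinner arm toward higher x and y. When the island was split at the middle of its x range, at 0.849, the arm held 14 CD cells, which is 45.2% of 31 (27.3 to 64.0), and 8 HFD cells, which is 15.4% of 52 (6.88 to 28.1). These intervals just overlapped. The split was chosen after the map had been seen, and no test was made of it. Cells of the arm had a lower mitochondrial percent in each library, with medians of 2.87% compared to 5.49% in the lower part in CD and 4.36% compared to 6.59% in HFD, so that HFD had the higher value in either part. Of the 16 ciliated cells at 10% or above, 3 were among the 22 cells of the arm and 13 among the 61 of the lower part. By library these were 2 of 14 and 6 of 17 in CD, and 1 of 8 and 7 of 44 in HFD. In the lower part the median depth was 7100 UMIs and 2848 genes in CD and 12425.5 UMIs and 4009.5 genes in HFD. In the arm it was 10734 UMIs and 3554.5 genes in CD and 11062.5 UMIs and 3533.5 genes in HFD. The genes that set the arm apart were not analysed here.

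**Figure D5:**
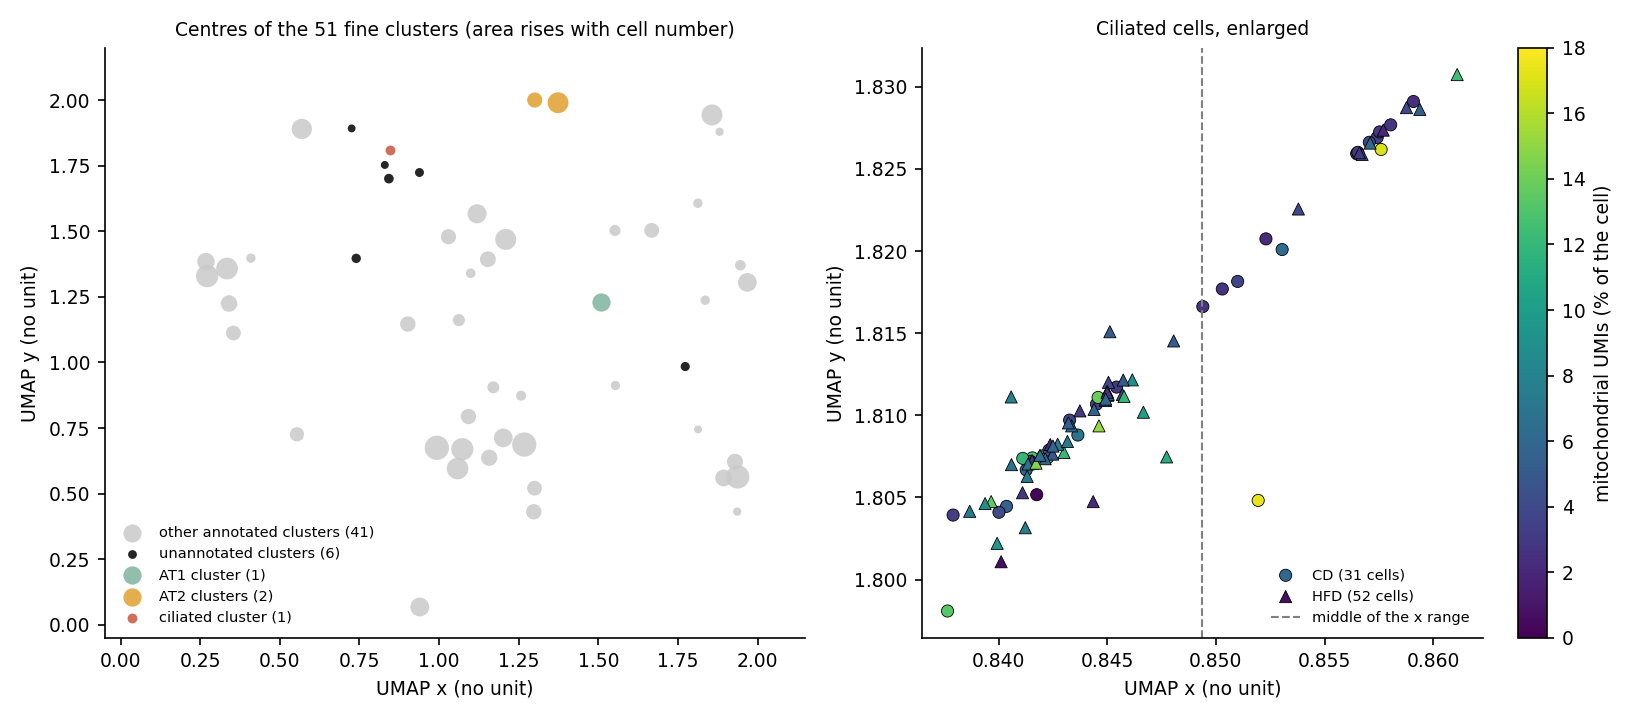
Left, UMAP centres of the 51 fine clusters (axes without unit, area rising with cell number), with the ciliated, AT1, AT2 and unannotated clusters marked. Right, the 83 ciliated cells enlarged (circles, CD; triangles, HFD), coloured by mitochondrial percent, with the middle of their x range dashed. The arm to the right of the line held 14 CD and 8 HFD cells, mostly of low mitochondrial percent.

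The cells kept after the authors' filters held 42470977 UMIs in CD and 50679251 in HFD. Every cell in the table had at least 1000 UMIs, a higher minimum than the one the study's methods state. The libraries shared 27 cell barcodes, none of which was that of a ciliated cell. Above the 99th percentile of UMIs of each library, 1 of 88 cells in CD and 4 of 97 in HFD were ciliated. Without these cells, the HFD to CD ratio of median ciliated UMIs was 1.13 (0.825 to 2.05) and that of the shares 1.47 (0.910 to 2.39). No step that removes doublets is given in the study's methods, and no doublet caller was run here.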

How the data were processed

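Lung cells of 1 CD and 1 HFD library were analysed. The study's methods state that the authors used Cell Ranger with GRCm38.p6, merged the libraries in Seurat (4.1.0 in the submitters' processing notes), filtered cells on mitochondrial content, UMIs and genes, and clustered both libraries together. The labels name a 3' droplet kit and the methods a 5' one. The deposited table gives raw counts of UMIs and detected genes per cell, neither normalised, and the percent of mitochondrial UMIs. Its UMAP coordinates were used as scores without a unit, as deposited. A second deposited table gives flags per gene, and values of single genes per cell were not analysed here. Filters remove shallow cells, so low values of UMIs and genes are cut off. The study's methods also state an upper limit on mitochondrial content. The highest mitochondrial percent of any cell was 19.9%, so high values of this measure are cut off as well.

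Shares were given exact Clopper-Pearson intervals, ratios of shares and odds ratios conditional exact intervals, and medians order-statistic intervals. Ratios and differences of medians took the outer bounds of both intervals. Sums were given Poisson intervals. Intervals of shares and sums cover counting error only, those of medians the spread between the cells of a library, and none the differences between animals. No p-value was computed, since cells are not replicates. Mitochondrial UMIs were the product of percent and UMIs, whole for 100% of cells within 1e-06. Genes at equal depth were compared within 10% of the UMIs, because cells could not be thinned. Of 154 listed genes, 152 were found. Foxj1 and every flagged cilia gene were to be named. The cells and lists were chosen with earlier results of these data known. Positions are from GENCODE M21 (GRCm38). Alternatives were limits on mitochondrial percent, UMIs and genes, other denominators, summaries and UMI windows. Calculations were tested on simulated data. Tools were scipy 1.17.1, numpy 2.4.6, matplotlib 3.10.9 and pandas 2.3.3 under Python 3.11.15.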

Additional observations from a re-analysis of the deposited data

How the results depend on the processing

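Of 156 values under alternatives, 34 equalled the reported value because no cell compared was removed, or none that moved the median, and say nothing about stability. Of the other 122, 117 stayed within the reported interval (UMAP distances within the spread of the cells, and a ratio of log10 values judged by whether its interval included 1), 5 moved out of it and none reversed a direction whose interval excluded 1 or 0. In HFD, ciliated to AT1 ratios fell with a minimum of 2000 UMIs to 2.08 for UMIs and 1.61 for genes, and with 3000 UMIs to 1.68 and 1.47. Those minimums remove more AT1 than ciliated cells. At UMIs within 25%, the HFD gene ratio to AT1 cells was 1.10, and the cause was not tested. With at most 10% mitochondrial UMIs, the interval of the ciliated share ratio excluded 1 (1.78, 1.05 to 3.09), and 0 was excluded for the mitochondrial difference between diets (2.13, 0.710 to 3.71) and for that of CD ciliated minus AT2 cells (-2.14, -2.88 to -1.27). Both differences were taken after a limit on the same measure, so their narrower intervals follow from the limit and are no gain in support. The limit removed 8 of 31 CD and 8 of 52 HFD ciliated cells, and this unequal loss itself raised the share ratio. The CD ciliated to AT2 gene ratio excluded 1 under that limit (1.24, 1.02 to 1.63), with at least 3000 UMIs (1.21, 1.02 to 1.51) and without the 1% of deepest cells (1.21, 1.00461 to 1.47). The CD ciliated to AT1 UMI ratio no longer excluded 1 with at least 2000 (1.72, 0.958 to 2.59) or 3000 UMIs (1.61, 0.988 to 2.34). Values fell on either side of 1 for ciliated cells per AT1 cell (0.867 to 1.29), for the odds ratio of ciliated among epithelial cells (0.960 to 1.20), for the HFD ciliated to AT2 UMI ratio (0.899 to 1.05) and for genes per 1000 UMIs between diets, where CD cells within 25% of the UMIs gave 1.04 (1.01 to 1.07). Alternatives that left out mitochondrial UMIs or kept the lower part of the island were added once the data were known. In the lower part, the ratio of median UMIs was 1.75 (0.802 to 3.36) and the mitochondrial difference 1.10 (-6.55 to 3.84). No paired analysis was possible because 1 library a diet leaves no repeated pairs. The 31 and 52 ciliated cells limit every comparison between diets.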

Other observations

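The clusters nearest to ciliated cells on the UMAP were 4 that the authors left unannotated. Cluster 50, at 0.0585 from the ciliated centre, held 16 CD and 5 HFD cells with a median of 67399 UMIs and 6060 genes. Cluster 39, at 0.109, held 32 CD and 44 HFD cells with a median of 31760 UMIs but 3065 genes, fewer than the 3616 of ciliated cells at a median of 10508 UMIs. Cluster 46, at 0.127, held 30 CD and 22 HFD cells with a median of 3201.5 UMIs, and cluster 51, at 0.145, held 8 CD and 10 HFD cells with a median of 6608 UMIs. Their median mitochondrial percent ranged from 2.65% in cluster 39 to 3.44% in cluster 50, below the 5.49% of ciliated cells. They were chosen with their values in view, and their genes were not analysed here.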
